A study of Mus musculus with 12 samples.

Results

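The cytochrome P450 genes of families 1 to 3 encode enzymes that oxidise drugs, toxins, steroids and fatty acids in the liver. Genes were taken as members when their mouse symbol was Cyp1, Cyp2 or Cyp3 followed by a subfamily letter and a number, and when they had at least 10 estimated counts in 3 or more of the 12 libraries. Of the 28030 genes in the table, 58 carried such a symbol and 41 met the minimum. The members fell into 12 subfamilies, of which Cyp2c was the largest with 13 genes, followed by Cyp2d and Cyp3a with 6 genes each and Cyp2a with 4. Of the other 17 symbols, 4 (Cyp2j7, Cyp2j11, Cyp2j12 and Cyp2w1) had no count in any library. Cyp1a1 and Cyp1b1, which dioxin-like compounds induce, also stayed below the minimum, with at most 13.6 and 6.63 counts in a library.

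The enzymes sit in the endoplasmic reticulum and take electrons from NADPH through P450 oxidoreductase (Por), with cytochrome b5 as a second donor. In mouse liver the aryl hydrocarbon receptor (Ahr) is known to drive Cyp1a genes, the constitutive androstane receptor (Nr1i3, CAR) Cyp2b and Cyp2c genes, and the pregnane X receptor (Nr1i2, PXR) Cyp3a genes. Many of these enzymes are textbook markers of the hepatocytes around the central vein, where most drug oxidation takes place.

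RNA came from hepatocytes of 12-week-old wild-type female mice on normal chow, isolated with digitonin as pericentral (PC, next to the central vein) or periportal (PP, next to the portal tract) cells, and the strain is not given in the labels. The 4 groups of 3 libraries were fasted PC, fasted PP, fed PC and fed PP. All mice had been trained for 3 days with 16 h without food and 8 h with food. A meal of 4 h with 20% sucrose water is given in the labels for fed and fasted mice alike. Fed mice were taken 4 h into that meal, and fasted mice then had no food or sucrose water for 24 h. The labels call the libraries biological replicates without naming animals, so every p-value reflects only how far these libraries vary, which may be technical. Expression was compared with edgeR's quasi-likelihood test over 12086 genes, all 41 members included. Calls required an adjusted p (Benjamini-Hochberg) under 0.05. Fold changes are log2 values ± SE, and levels are CPM, counts scaled by library size and TMM factors, with n = 3 per group.

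Libraries held 16245846 to 27449412 estimated counts. The zone labels were checked with markers outside the family: 13 of 14 pericentral markers were called higher in PC of fasted mice and 12 of 14 in PC of fed mice, and 10 and 11 of 15 periportal markers were called lower. One library stood apart. In fasted PC replicate 1 the pericentral markers summed to 2173 CPM, where replicates 2 and 3 held 9328 and 7365 CPM and the fed PC libraries 6334 to 7101 CPM. Its glutamine synthetase gene Glul, a marker of the innermost pericentral layer, was at 172 CPM, with 3639 and 2353 CPM in replicates 2 and 3 and 49.3 to 151 CPM in fasted PP. Counts of member calls that rest on fasted PC, and those of the female-biased list, are therefore also given without it. So are single members whose call or direction then changed. Counts for the markers and the other gene lists, and values of summed relatives, are given with all 12 libraries only. Markers of endothelium, macrophages, stellate cells and leukocytes summed to at most 24.3, 9.98, 14.99 and 7.66 CPM in any library. Cholangiocyte markers summed to 22.6 to 30.9 CPM in fasted PC and 44.6 to 47.3 CPM in fasted PP, and to 30.9 to 37.1 CPM in fed PC and 48.8 to 58.0 CPM in fed PP; 4 of the 7 were tested, of which 2 and 1 were called lower in PC. No gene of these 5 lists was at 0 in every library. Their part in the results was not tested.

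Many members have close relatives. In 21 of the 41 members, at least 20% of the 31-base words of the transcripts also occur in another gene, so kallisto divides shared reads between them by a model. The share was highest in the block Cyp2c40 (72.6%), Cyp2c67 (67.6%), Cyp2c69 (64.9%) and Cyp2c68 (62.0%), and in Cyp2a4 it was 55.9%. The others were Cyp2a5, Cyp2a12, Cyp2a22, Cyp2b9, Cyp2b13, Cyp2c37, Cyp2c39, Cyp2c50, Cyp2c54, Cyp2d9, Cyp2d10, Cyp2d40, Cyp3a16, Cyp3a25, Cyp3a44 and Cyp3a59, at 23.0% to 49.9%. Values of each of these 21 genes are uncertain, and sums over relatives are given beside them below. Cyp1a2, Cyp2b10, Cyp2c29, Cyp2e1, Cyp2f2, Cyp2j9 and Cyp3a11 were among the 20 members under this limit. Words were pooled over all transcripts of a gene. Cyp3a11 shared 753 of its 5059 words (14.9%), so its values also depend on how reads are divided, and it is part of a sum below.

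Bases upstream of the transcription start are shown for members whose values the results turn on. They come from RefSeq (GRCm38.p6), where 35 of the 41 members had an entry, and each is the 150 bases before the start, read 5′ to 3′ on the gene's strand. The near-identical Cyp2a4 (chr7:26307042-26307191, plus strand) and Cyp2a5 (chr7:26835189-26835338, plus strand) are shown because their zone differences ran in opposite directions. Cyp2e1 (chr7:140763669-140763818, plus strand) and Cyp1a2 (chr9:57683656-57683805, minus strand) are shown as highly pericentral members, and Cyp2f2 (chr7:27119805-27119954, plus strand) as the most periportal one. Capitals mark TATAAA, the TATA box, where it occurs.
Cyp2a4: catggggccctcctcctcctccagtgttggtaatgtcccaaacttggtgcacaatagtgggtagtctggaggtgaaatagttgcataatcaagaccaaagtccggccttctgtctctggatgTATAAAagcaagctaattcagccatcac
Cyp2a5: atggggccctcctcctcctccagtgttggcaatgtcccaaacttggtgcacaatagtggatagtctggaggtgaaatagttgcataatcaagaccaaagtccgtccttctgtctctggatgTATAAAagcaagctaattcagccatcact
Cyp2e1: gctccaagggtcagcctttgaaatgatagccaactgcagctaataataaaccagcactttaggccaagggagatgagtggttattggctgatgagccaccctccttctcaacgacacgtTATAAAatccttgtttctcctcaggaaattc
Cyp1a2: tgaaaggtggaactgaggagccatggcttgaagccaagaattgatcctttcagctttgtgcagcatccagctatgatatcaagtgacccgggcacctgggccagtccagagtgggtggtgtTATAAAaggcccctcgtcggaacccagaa
Cyp2f2: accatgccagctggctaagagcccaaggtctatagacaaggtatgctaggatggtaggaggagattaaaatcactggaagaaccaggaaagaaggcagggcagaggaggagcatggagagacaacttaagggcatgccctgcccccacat
Over the 250 bases upstream, Cyp2a4 and Cyp2a5 were identical at 245 of 251 aligned positions (97.6%), with 4 substitutions. TATAAA on the gene's strand between 40 and 20 bases upstream of the start was found in 9 of 35 members (25.7%), against 1.91% of 32851 RefSeq windows. These were Cyp1a2, Cyp2a4, Cyp2a5, Cyp2a12, Cyp2a22, Cyp2c38, Cyp2c55, Cyp2c67 and Cyp2e1. Cyp2a4 and Cyp2a5, and Cyp2a12 and Cyp2a22 (82.5% identical upstream), are relatives, so their boxes are not independent. Of the 9, 6 were called higher in PC in at least 1 state, 1 (Cyp2a4) lower, and 2 (Cyp2a12 and Cyp2c55) in neither direction. Those called higher in both states were Cyp1a2, Cyp2a5, Cyp2c38, Cyp2c67 and Cyp2e1. Over all 41 members, 15 were called higher and 2 lower in PC in each state, and 13 and 1 in both states. Counts per state are smaller than counts for at least 1 state, and the 41 include members without a RefSeq entry. The 2 sets of counts are therefore not on the same footing. A link between the box and the zone was not tested.

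The members together took a larger part of the RNA in PC than in PP. Their summed level was 31626, 44291 and 41074 CPM in fasted PC libraries, against 14599, 14456 and 14963 CPM in fasted PP libraries. In fed mice it was 36211, 35027 and 33787 CPM in PC and 17169, 16874 and 18336 CPM in PP. Each PC library lay above each PP library of the same feeding state. The ratio of means was 2.66 in fasted and 2.01 in fed mice (exact permutation test, two-sided p = 0.1 in both, the smallest that 3 against 3 libraries allow). Fasted over fed, the ratio was 1.11 in PC, where the libraries overlapped (exact permutation p = 0.4), and 0.84 in PP, where they did not (exact permutation p = 0.1). Without fasted PC replicate 1 the ratio of PC over PP in fasted mice was 2.91 and that of fasted over fed in PC 1.22 (exact permutation p = 0.2 in both, the smallest that 2 against 3 libraries allow). Cyp2e1 alone made up 11794 to 15402 CPM in fasted PC. Without it, the other 40 members summed to 25025 ± 4673 CPM in fasted PC, 14140 ± 614 CPM in fasted PP, 25164 ± 252 CPM in fed PC and 16732 ± 983 CPM in fed PP (SD). In bulk libraries, fewer cells of a type and less RNA per cell cannot be told apart.

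Scaled to transcript length, the most abundant member in PC was Cyp2e1, with a mean of 7623 CPM per kb in fasted PC and 5371 CPM per kb in fed PC. Cyp3a11, a broad drug oxidase and PXR target, came second at 2831 and 2818 CPM per kb, and Cyp2a5, the coumarin hydroxylase, followed at 2467 and 2065 CPM per kb. In PP the order differed. Cyp3a11 led at 1295 CPM per kb in fasted PP and 1551 CPM per kb in fed PP, and Cyp2d26 came second in fasted PP at 747 CPM per kb (562 in fed PP). Cyp2f2, known from naphthalene activation in mouse lung, followed in fasted PP at 717 CPM per kb and came second in fed PP at 1054 CPM per kb. At the low end of the family, Cyp2u1, Cyp2d34, Cyp2c55 and Cyp2g1 stayed under 2 CPM per kb in fasted PC, so their values rest on few counts.

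**Figure D1:**
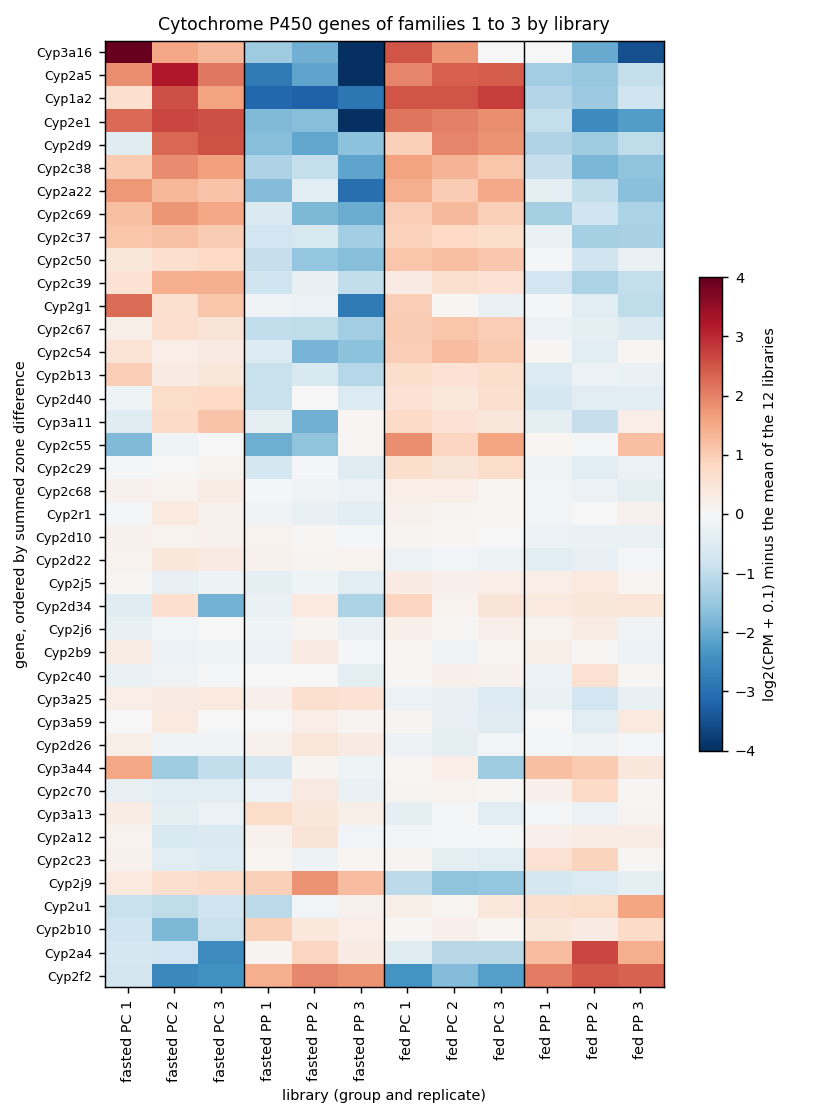
Level of each of the 41 members (rows) in each of the 12 libraries (columns), as log2(CPM + 0.1) minus that gene's mean over the libraries; rows run from the genes highest in PC at the top to those highest in PP at the bottom. The upper rows are red in PC and blue in PP of both fasted and fed mice, while Cyp2a4 and Cyp2f2 at the bottom show the opposite; fasted PC 1 departs from the other 2 fasted PC libraries in Cyp3a16, Cyp2d9 and Cyp3a44.

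Other motifs were searched on both strands of the 250 upstream bases. GCGTG, the core of the dioxin response element that AhR binds, was found in 3 of 35 members (Cyp2b10, Cyp2c68 and Cyp2j9; 8.57%), against 28.2% of all windows. CTTTGAT, bound by TCF/LEF factors of Wnt signalling, was found in Cyp2c29 and Cyp2c39 (5.71%), against 3.21% of windows. AGGTCA, a site that nuclear receptors bind, was found in 10 members (28.6%), against 14.0% of windows. These included the relatives Cyp2b9 and Cyp2b13 (upstream bases 99.2% identical) and Cyp3a25 and Cyp3a59 (94.8%). The C/EBP type motif TTGCNNCAA was found in Cyp2c37 and Cyp2c50 (5.71%), against 1.74% of windows. Both are relatives too, with upstream bases 84.3% identical. Finds in relatives are not independent. GCCAAT, the CCAAT box, was found in 6 members (17.1%), against 13.5% of windows.

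The first comparison asked how the genes differ between PC and PP hepatocytes. In fasted mice 15 of 41 members were called higher in PC and 2 lower, against 3.35% and 3.05% of all 12086 genes. In fed mice 15 were again called higher and 2 lower, against 2.24% and 2.47% of all genes. The 21 members sharing sequence with relatives held 12 of the 15 higher calls in fasted mice and 11 in fed mice. Of the 20 others, 3 were called higher and 2 lower in fasted mice, and 4 and 1 in fed mice. With relatives summed, 8 of 28 features were called higher in PC in each state, against 392 in fasted and 264 in fed mice of all 12070 features. The median log2 fold change of the members was 0.43 in fasted and 0.31 in fed mice, while that of all genes was -0.0015 and -0.014. The libraries of the zones did not overlap in 24 of 41 members in fasted and 26 in fed mice, against 22% and 26% of all genes. Both comparisons called 13 members higher and 1 lower, out of 198 and 192 genes over the whole table. Without fasted PC replicate 1 the counts in fasted mice were 15 higher and 5 lower, against 3.9% and 4.2% of 12396 genes tested. Cyp3a16 was then no longer called, the other 16 calls held with log2 fold changes that moved by between -0.85 and 0.49 (adjusted p up to 0.0359), and Cyp2r1, higher in PC, and Cyp2a12, Cyp2d26 and Cyp3a13, lower in PC, were called in addition. Fitted on the 6 fasted libraries alone, 9 were called higher, against 195 of 11391 genes. Cyp2a5, Cyp2a22, Cyp2c54, Cyp2d9, Cyp2d40 and Cyp3a16 then had edgeR adjusted p between 0.0557 and 0.206. With no filter on low counts, Cyp2d40 (0.0719) and Cyp3a16 (0.111) lost the call in fasted mice, and Cyp2c54 (0.106), Cyp2c68 (0.0572) and Cyp2d9 (0.0836) in fed mice. DESeq2 called Cyp2c68 (0.0134), Cyp2g1 (0.00877) and Cyp2r1 (0.0376) higher and Cyp2a4 (0.0274), Cyp2j9 (0.0269) and Cyp3a13 (0.0373) lower in PC of fasted mice in addition. In fed mice DESeq2 added Cyp2a22 (0.00161) and Cyp2d10 (0.000359) as higher and Cyp2c23 (0.0253) and Cyp2j9 (0.0235) as lower in PC.

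Cyp2e1, which oxidises ethanol, acetone and paracetamol, was the most abundant pericentral member. Its level was 11794, 15402 and 14721 CPM in fasted PC and 723, 754 and 120.3 CPM in fasted PP libraries. In fed mice it was 10862, 9762 and 8911 CPM in PC and 1254, 415 and 513 CPM in PP. Each PC library lay above each PP library, and the zone difference was 4.71 ± 0.70 on the log2 scale in fasted mice (edgeR adjusted p = 0.00365) and 3.76 ± 0.67 in fed mice (edgeR adjusted p = 0.0109). Without fed PP replicate 2 the fed value had an adjusted p of 0.0515. Cyp1a2, which oxidises caffeine and aromatic amines and is an AhR target, had 218, 829.9 and 420.3 CPM in fasted PC and 15.6, 14.6 and 18.6 CPM in fasted PP. In fed mice Cyp1a2 was at 791, 783 and 945 CPM in PC and 61.5, 49.9 and 79.7 CPM in PP. The groups were apart in both states, although fasted PC replicate 1 was the lowest PC library. The Cyp1a2 difference was 4.91 ± 0.44 in fasted mice (edgeR adjusted p = 0.000291; 5.26 ± 0.29 without that library) and 3.72 ± 0.42 in fed mice (edgeR adjusted p = 0.000726).

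**Figure D2:**
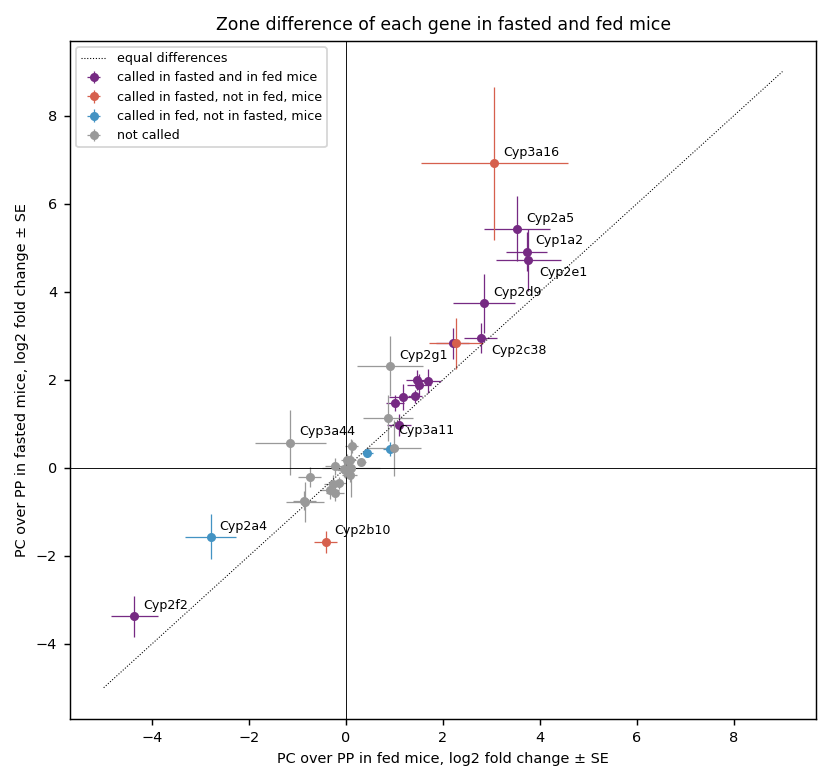
PC over PP log2 fold change of each of the 41 members in fasted mice (vertical axis) against fed mice (horizontal axis), with SE bars from edgeR and a dotted line where both are equal; colours give where the adjusted p was under 0.05. Cyp2a5, Cyp1a2, Cyp2e1 and Cyp2d9 lie far up to the right and Cyp2f2 far down to the left, and Cyp3a16 stands out by its wide bars.

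The Cyp2a genes split between the zones. Cyp2a5, which hydroxylates coumarin and nicotine, was at 3170.2, 7992 and 3732 CPM in fasted PC and 122, 199.8 and 24.0 CPM in fasted PP. In fed mice Cyp2a5 had 3338, 4529 and 4602 CPM in PC and 329, 304 and 449.6 CPM in PP. It was higher in every PC library, by 5.43 ± 0.74 in fasted mice (edgeR adjusted p = 0.00241) and by 3.53 ± 0.67 in fed mice (edgeR adjusted p = 0.0158). The fed call was lost without fed PC replicate 3 or without fed PP replicate 1, 2 or 3, with adjusted p between 0.0503 and 0.079. Cyp2a4, a steroid hydroxylase of female liver, ran the other way. Its level was 284, 262 and 77.7 CPM in fasted PC and 484, 807 and 564 CPM in fasted PP, a difference of -1.57 ± 0.51 that edgeR did not call (adjusted p = 0.114; 0.0274 in DESeq2). In fed mice Cyp2a4 had 321, 209 and 209 CPM in PC and 1059, 2830.2 and 1233 CPM in PP, and fell by 2.79 ± 0.53 in PC (edgeR adjusted p = 0.0139; 0.078 and 0.0736 with fed PC replicate 2 or 3 left out). The Cyp2a4 libraries did not overlap between the zones in either state.

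As both genes share 31-base words, the pair was also read as one. Cyp2a4 took between 2.04% and 8.77% of the pair's CPM in the 6 PC libraries and between 73.3% and 95.9% in the 6 PP libraries. Summed, the pair was higher in PC of fasted mice by 2.82 ± 0.41 (edgeR adjusted p = 0.00257). In fed mice the sum differed by 1.09 ± 0.39, which was not called (edgeR adjusted p = 0.174). The upstream sequences of both genes, printed above, hold the TATA box at -28 in Cyp2a4 and -29 in Cyp2a5, counted from the start.

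Cyp2a22, a less studied relative, had 227, 171 and 151 CPM in fasted PC and 20.4, 48.8 and 8.30 CPM in fasted PP. The groups were apart, and it was higher in PC by 2.82 ± 0.57 (edgeR adjusted p = 0.0188), a call lost when fasted PC replicate 2 was left out (0.0506) or fasted PP replicate 1 (0.0767). In fed mice Cyp2a22 had 185, 137 and 195 CPM in PC and 52.2, 33.7 and 21.1 CPM in PP, also apart. The fed difference was 2.27 ± 0.56 (edgeR adjusted p = 0.0511), with 0.0134 on the 6 fed libraries alone, 0.0495 with DESeq2 size factors, 0.00982 without fasted PP replicate 2 and 0.0106 without fasted PP replicate 3. Cyp2a12, with which it shares words, had means of 514 ± 160.4 CPM in fasted PC and 733 ± 163 CPM in fasted PP, and 601 ± 13.5 CPM in fed PC and 758 ± 28.3 CPM in fed PP (SD). The differences of -0.51 ± 0.20 and -0.34 ± 0.20 were not called, and the sum of Cyp2a12 and Cyp2a22 differed by -0.12 ± 0.19 in fasted and -0.037 ± 0.19 in fed mice.

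On the periportal side stood Cyp2f2. Its level was 242, 67.8 and 75.4 CPM in fasted PC and 1106, 1514 and 1392 CPM in fasted PP. In fed mice Cyp2f2 had 76.5, 122 and 87.2 CPM in PC and 1652, 2187 and 2060.5 CPM in PP. Every PC library lay below every PP library, with fasted PC replicate 1 the highest of the PC libraries. Cyp2f2 was lower in PC, with a log2 fold change of -3.38 ± 0.46 in fasted mice (edgeR adjusted p = 0.00188; -4.23 ± 0.25 without fasted PC replicate 1) and -4.37 ± 0.48 in fed mice (edgeR adjusted p = 0.000726). Cyp2f2 was the member called lower in PC in both states.

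**Figure D3:**
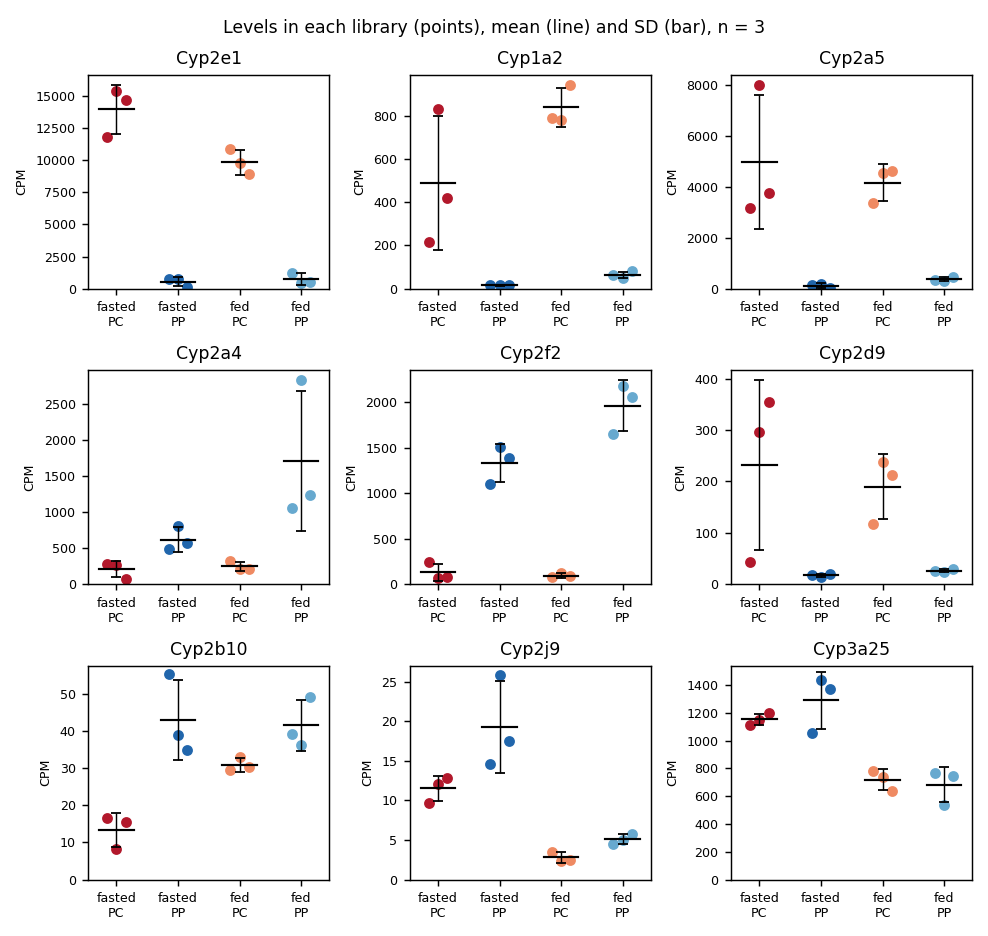
CPM of 9 members in each library (points) of the 4 groups, with the mean (line) and SD (bar) of 3 libraries, on axes that start at 0. Cyp2e1, Cyp1a2, Cyp2a5 and Cyp2d9 are high in PC, Cyp2a4 and Cyp2f2 in PP, while Cyp2j9 and Cyp3a25 are higher in fasted than in fed libraries of both zones.

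Of the 3 Cyp2b genes, 1 was higher in PC in both states. Cyp2b13, a female-biased gene, had 559, 358 and 386 CPM in fasted PC and 153, 187 and 128 CPM in fasted PP, and 458, 421 and 461 CPM in fed PC and 193, 239 and 235 CPM in fed PP. The zones did not overlap, and it was higher in PC by 1.48 ± 0.18 in fasted mice (edgeR adjusted p = 0.000736) and 1.01 ± 0.18 in fed mice (edgeR adjusted p = 0.00529). Its relative Cyp2b9 had 515, 359 and 373 CPM in fasted PC, 360.5, 528 and 408 CPM in fasted PP, 446, 381 and 445 CPM in fed PC and 496, 433 and 361 CPM in fed PP, with zone differences of -0.06 ± 0.18 and -0.02 ± 0.18. The upstream 250 bases of both genes were identical at 99.2% of positions. Their sum differed by 0.53 ± 0.17 in fasted mice (edgeR adjusted p = 0.0919) and by 0.42 ± 0.17 in fed mice (edgeR adjusted p = 0.221), and was not called. Cyp2b10, the classic CAR target, was at 16.5, 8.12 and 15.5 CPM in fasted PC and 55.2, 38.9 and 34.8 CPM in fasted PP. It was lower in PC, at -1.68 ± 0.25 on the log2 scale (edgeR adjusted p = 0.00188) with no overlap. In fed mice Cyp2b10 had 29.5, 33.0 and 30.2 CPM in PC and 39.3, 36.1 and 49.04 CPM in PP, a difference of -0.42 ± 0.24 that was not called (edgeR adjusted p = 0.417).

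The Cyp2c genes held more calls than any other subfamily. Their products oxidise arachidonic acid, linoleic acid and many drugs. Of 13 members, 7 were called higher in PC of fasted mice and 9 in PC of fed mice, and 0 lower in either (the lowest of the 13 had adjusted p = 0.338 in fasted and 0.106 in fed mice; DESeq2 called Cyp2c23 lower in fed mice). Cyp2c38, an arachidonic acid oxidase, had 131, 237 and 200.3 CPM in fasted PC and 26.9, 32.5 and 14.6 CPM in fasted PP, and 194, 162 and 139 CPM in fed PC and 33.8, 17.8 and 20.6 CPM in fed PP. It showed the largest zone difference of the subfamily, 2.94 ± 0.35 in fasted mice (edgeR adjusted p = 0.000869) and 2.78 ± 0.34 in fed mice (edgeR adjusted p = 0.00113). Cyp2c39, known for hydroxylating retinoic acid, had 21.8, 40.4 and 39.6 CPM in fasted PC and 8.43, 11.9 and 7.34 CPM in fasted PP. In fed mice Cyp2c39 was at 18.4, 22.5 and 21.9 CPM in PC and 8.61, 5.96 and 7.44 CPM in PP. Again the zones were apart, and Cyp2c39 was higher in PC by 1.88 ± 0.25 and 1.51 ± 0.25 (edgeR adjusted p = 0.000962 in fasted and 0.0036 in fed mice). Both genes summed were higher in PC by 2.72 ± 0.31 in fasted mice (edgeR adjusted p = 0.000759) and by 2.56 ± 0.31 in fed mice (edgeR adjusted p = 0.000888).

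The neighbours Cyp2c37, Cyp2c50 and Cyp2c54, which share words, were all higher in PC. Cyp2c37 had 1554, 1634 and 1456 CPM in fasted PC and 430.5, 468 and 287 CPM in fasted PP, and 1368, 1266 and 1175 CPM in fed PC and 601, 287 and 294 CPM in fed PP. Cyp2c50 was at 1039.5, 1215 and 1316 CPM in fasted PC and 401, 263 and 234 CPM in fasted PP, and at 1635, 1768 and 1602 CPM in fed PC and 740.0, 439.9 and 638 CPM in fed PP. In both genes each PC library was above each PP library of its state. The differences were 1.97 ± 0.27 and 1.69 ± 0.27 for Cyp2c37 and 1.99 ± 0.22 and 1.46 ± 0.22 for Cyp2c50, fasted and fed (edgeR adjusted p at most 0.00338). Cyp2c54 had 415, 343 and 358 CPM in fasted PC, 196, 78.2 and 92.2 CPM in fasted PP, 559.7, 672 and 583 CPM in fed PC and 295, 206 and 299.5 CPM in fed PP. It was higher in PC by 1.60 ± 0.30 in fasted (edgeR adjusted p = 0.00788) and 1.18 ± 0.29 in fed mice (edgeR adjusted p = 0.0417), and its fed call was lost in 8 of the 12 fits that left out 1 library, all but those without fasted PC replicate 1 or 1 fasted PP library, with adjusted p up to 0.139. The 3 genes summed were higher in PC by 1.93 ± 0.21 in fasted mice (edgeR adjusted p = 0.000393) and by 1.48 ± 0.21 in fed mice (edgeR adjusted p = 0.00117).

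The block Cyp2c40, Cyp2c67, Cyp2c68 and Cyp2c69 shares the most sequence, and its upstream bases are shown with the reverse complement of TGGACTTTG in capitals, a motif of the kind that HNF4A, a hepatocyte transcription factor, binds. The positions are chr19:39812815-39812964 for Cyp2c40, chr19:39649043-39649192 for Cyp2c67, chr19:39741102-39741251 for Cyp2c68 and chr19:39886770-39886919 for Cyp2c69, all on the minus strand of GRCm38.p6.
Cyp2c40: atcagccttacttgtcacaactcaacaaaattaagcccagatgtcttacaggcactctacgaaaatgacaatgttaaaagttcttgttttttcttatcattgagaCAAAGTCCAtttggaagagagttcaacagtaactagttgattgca
Cyp2c67: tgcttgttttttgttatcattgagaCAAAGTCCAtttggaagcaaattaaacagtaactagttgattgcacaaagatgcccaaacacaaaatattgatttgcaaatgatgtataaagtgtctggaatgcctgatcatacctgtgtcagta
Cyp2c68: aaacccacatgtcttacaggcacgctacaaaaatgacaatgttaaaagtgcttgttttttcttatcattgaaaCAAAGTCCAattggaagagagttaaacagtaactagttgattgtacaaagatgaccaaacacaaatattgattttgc
Cyp2c69: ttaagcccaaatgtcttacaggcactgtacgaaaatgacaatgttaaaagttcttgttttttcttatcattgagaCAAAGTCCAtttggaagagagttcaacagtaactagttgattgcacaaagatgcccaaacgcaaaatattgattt
The motif, searched on both strands of the 250 upstream bases, was found in 7 of 35 members (20%), against 0.38% of 32851 RefSeq windows. Besides the block, these were Cyp2c70, Cyp3a11 and Cyp3a16. The 4 block genes share the stretch around it. Between them, 48.2% to 91.3% of aligned upstream positions were identical, with gaps counted as differences. Pairs had 3 to 14 substitutions and 8 to 160 gap positions. The lowest pair, Cyp2c40 and Cyp2c67, had 11 substitutions and 160 gap positions among 330 aligned positions, so its low value is mostly gaps. Cyp3a11 and Cyp3a16 are relatives too, so the 7 are not independent finds. All 4 block genes hold the motif, with zone differences in fasted mice between -0.031 and 2.83.

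Cyp2c69 had 565, 830.0 and 715 CPM in fasted PC and 165, 70.2 and 61.6 CPM in fasted PP, and 488, 603 and 480.5 CPM in fed PC and 97.8, 143 and 103 CPM in fed PP. Cyp2c67 was at 105, 142 and 128 CPM in fasted PC and 44.9, 43.7 and 33.4 CPM in fasted PP, and at 181, 189.5 and 176 CPM in fed PC and 75.5, 69.0 and 59.9 CPM in fed PP. Both were above PP in every PC library. Cyp2c69 was higher in PC by 2.83 ± 0.35 and 2.20 ± 0.34 and Cyp2c67 by 1.62 ± 0.14 and 1.42 ± 0.14, fasted and fed (edgeR adjusted p at most 0.0036). Cyp2c68 had 419.6, 404 and 452 CPM in fasted PC, 356, 338 and 312 CPM in fasted PP, 442, 442 and 393 CPM in fed PC and 342, 315 and 285 CPM in fed PP. Its small fed difference of 0.44 ± 0.11 was called (edgeR adjusted p = 0.0349) but lost when a fed PC library, fed PP replicate 2 or fed PP replicate 3 was left out (adjusted p up to 0.128), and the fasted one of 0.34 ± 0.11 was not called (edgeR adjusted p = 0.0873). Cyp2c40, an arachidonic acid oxidase, had 334, 371 and 393 CPM in fasted PC, 398, 407 and 316 CPM in fasted PP, 415, 468 and 454 CPM in fed PC and 344, 614 and 423 CPM in fed PP, with differences of -0.03 ± 0.18 and -0.05 ± 0.18. Summed, the block was higher in PC by 0.93 ± 0.15 in fasted (edgeR adjusted p = 0.00259) and 0.72 ± 0.15 in fed mice (edgeR adjusted p = 0.0133).

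Cyp2c29, a CAR-inducible epoxygenase with little shared sequence, had 1234, 1259 and 1420.2 CPM in fasted PC and 784, 1218 and 910.1 CPM in fasted PP. The difference of 0.43 ± 0.15 was not called (edgeR adjusted p = 0.142; 0.0275 without fasted PP replicate 2). In fed mice it was at 2060.4, 1829 and 2145 CPM in PC and 1156, 956 and 1089 CPM in PP, apart, and higher in PC by 0.91 ± 0.16 (edgeR adjusted p = 0.00435). Cyp2c70, which makes muricholic acids from bile acids in mice, and Cyp2c23, a kidney epoxygenase, were not called by edgeR in either state, with differences of -0.37 ± 0.19 and -0.21 ± 0.24 in fasted and -0.27 ± 0.19 and -0.75 ± 0.24 in fed mice (Cyp2c23 had an adjusted p of 0.0464 in fed mice without fed PP replicate 3). Cyp2c55, at 0.824 to 2.99 CPM in fasted PC and 0.702 to 3.10 CPM in fasted PP, differed by 0.44 ± 0.63 and 0.98 ± 0.57 and was not called.

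**Figure D4:**
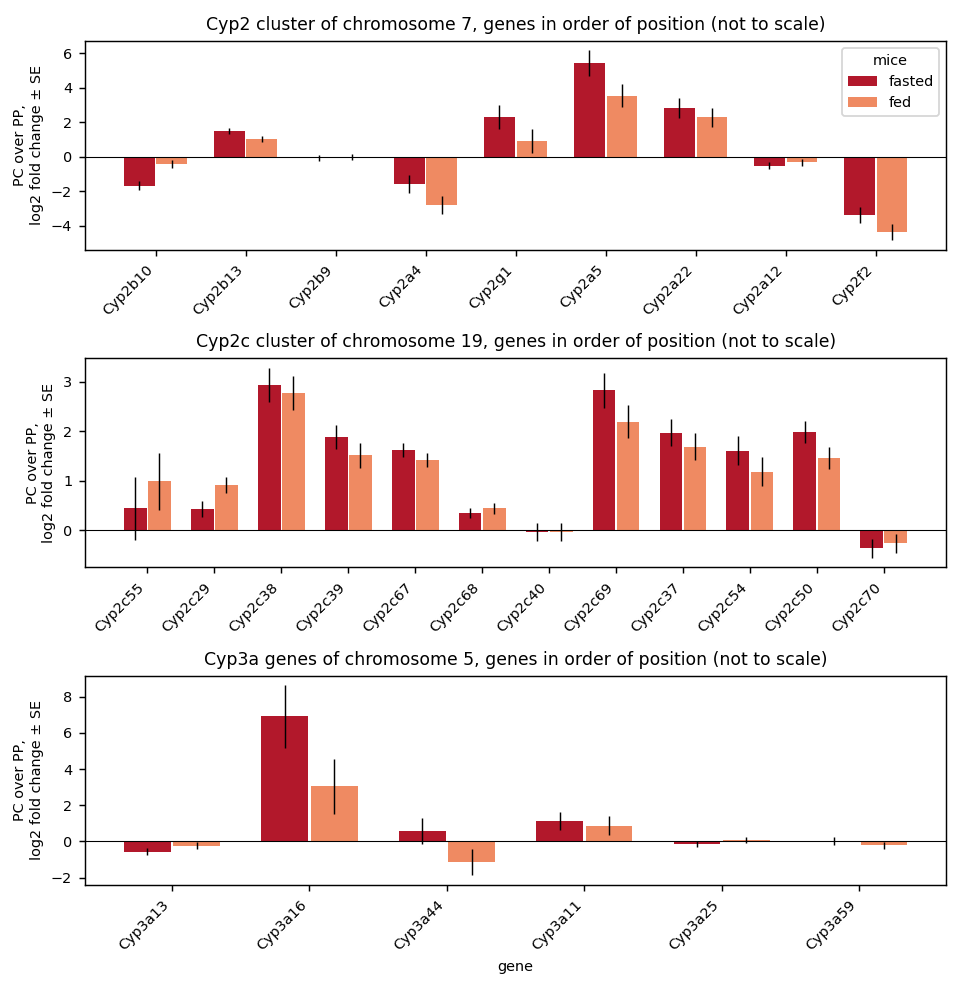
PC over PP log2 fold change (bars) with SE (lines) of the members of the chromosome 7 cluster, the Cyp2c cluster of chromosome 19 and the Cyp3a genes of chromosome 5, ordered by position without scale, for fasted and fed mice. Some neighbours on chromosome 7 point in opposite directions, whereas most Cyp2c genes point up; the Cyp2c40 bars are close to 0.

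Members next to each other in chromosomal order did not always share a zone. On chromosome 7 (GRCm38, 25897620 to 27133660), the members on either side of Cyp2a4 are Cyp2b9 and Cyp2g1. Those beside Cyp2a5 are Cyp2g1 and Cyp2a22. Cyp2b23 and Cyp2b19, below the count minimum, lie between Cyp2a4 and Cyp2g1. Within that stretch of 9 members, Cyp2a5 and Cyp2b13 were higher in PC in both states. Cyp2f2 at the far end was lower in both, and Cyp2b9, Cyp2g1 and Cyp2a12 were called in neither. On chromosome 19 (39007019 to 40187333), the 12 members from Cyp2c55 to Cyp2c70 included 7 called higher in PC in both states, among them Cyp2c38, Cyp2c39 and Cyp2c67 next to each other. Cyp2c68 and Cyp2c40 stand between Cyp2c67 and Cyp2c69. Cyp2g1, best known from the olfactory mucosa, was at 6.39, 2.05 and 2.83 CPM in fasted PC and 1.153, 1.05 and 0.0912 CPM in fasted PP, with no overlap, and at 2.63, 1.32 and 1.03 CPM in fed PC and 1.19, 0.892 and 0.572 CPM in fed PP, with overlap. The fasted difference of 2.30 ± 0.68 was not called by edgeR (adjusted p = 0.0728; 0.00877 in DESeq2, 0.0191 with the replicate block, 0.182 without fasted PC replicate 1), nor was the fed one of 0.91 ± 0.67 (edgeR adjusted p = 0.586).

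Of the 6 Cyp2d genes, 2 were called higher in PC in both states. Cyp2d9, a testosterone hydroxylase that is male-biased in mice, was at 43.5, 297 and 356 CPM in fasted PC and 18.6, 14.4 and 19.5 CPM in fasted PP. In fed mice Cyp2d9 had 118, 238 and 213 CPM in PC and 26.5, 22.7 and 30.1 CPM in PP. All PC libraries were above all PP libraries, fasted PC replicate 1 by the least. Cyp2d9 was higher in PC by 3.73 ± 0.66 in fasted mice (edgeR adjusted p = 0.0103; 4.22 ± 0.27 with adjusted p = 8.30e-06 without fasted PC replicate 1). The fed difference was 2.84 ± 0.64 (edgeR adjusted p = 0.035), and that call was lost when any fasted PP or fed library was left out (adjusted p up to 0.136). Summed with its relatives Cyp2d10, Cyp2d11 and Cyp2d12, it was at 724, 968 and 1049.8 CPM in fasted PC and 687, 645 and 599.8 CPM in fasted PP. The sum was higher in PC by 0.51 ± 0.13 in fasted mice (edgeR adjusted p = 0.0405) and by 0.61 ± 0.13 in fed mice (edgeR adjusted p = 0.0172). Cyp2d40 had 40.4, 75.7 and 78.8 CPM in fasted PC, 24.2, 44.4 and 30.7 CPM in fasted PP, 66.8, 60.6 and 72.4 CPM in fed PC and 27.8, 33.2 and 32.7 CPM in fed PP. The fasted libraries overlapped and the fed ones did not. Cyp2d40 was higher in PC by 0.97 ± 0.25 in fasted (edgeR adjusted p = 0.0454) and 1.09 ± 0.25 in fed mice (edgeR adjusted p = 0.0301). Its fasted call was lost in all but 2 of the 12 fits that left out 1 library, where fasted PC replicate 1 or the second fasted PP library was the one removed (adjusted p up to 0.158), and its fed call was lost without any 1 of the 6 fed libraries (up to 0.106). Summed with the pseudogene Cyp2d41-ps it was higher in PC by 0.95 ± 0.25 in fasted mice (edgeR adjusted p = 0.0498) and by 1.09 ± 0.25 in fed mice (edgeR adjusted p = 0.0311).

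The more abundant Cyp2d26 and Cyp2d10 were not called between the zones by edgeR. Cyp2d26 had 1186, 914 and 908 CPM in fasted PC, 1128, 1406 and 1274 CPM in fasted PP, 873, 782 and 945 CPM in fed PC and 971, 911 and 986 CPM in fed PP, and differed by -0.34 ± 0.13 (edgeR adjusted p = 0.18; 0.0451 without fasted PC replicate 1) and -0.14 ± 0.13 (edgeR adjusted p = 0.689). Cyp2d10 differed by 0.12 ± 0.10 and 0.31 ± 0.10 (the zones did not overlap), and DESeq2 called it higher in PC of fed mice. Cyp2d22 differed by 0.17 ± 0.11 and 0.09 ± 0.11 and Cyp2d34, under 2 CPM in every library, by -0.007 ± 0.66 and 0.09 ± 0.60, and neither was called.

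Among the 6 Cyp3a genes, Cyp3a11 was at 3126, 7319 and 9462 CPM in fasted PC and 3415, 1138 and 4550.1 CPM in fasted PP, and at 7412, 6432 and 5971 CPM in fed PC and 3376, 2300.1 and 5228 CPM in fed PP. The fasted libraries overlapped, the fed ones did not, and the differences of 1.13 ± 0.52 and 0.86 ± 0.52 were not called (edgeR adjusted p = 0.273 and 0.479). Cyp3a16, a gene of fetal and female liver, had 97.2, 4.93 and 4.16 CPM in fasted PC and 0.552, 0.351 and 0 CPM in fasted PP. Its value in fasted PC rests on replicate 1. Cyp3a16 was called higher in PC of fasted mice by 6.91 ± 1.73 (edgeR adjusted p = 0.0472), but without that library the difference was 3.94 ± 1.14 (adjusted p = 0.072), and the call was lost in 10 of 12 such fits, all but those without fasted PC replicate 2 or 3 (adjusted p up to 0.145). In fed mice it had 9.84, 5.77 and 1.67 CPM in PC and 1.62, 0.328 and 0.052 CPM in PP, apart but not called (edgeR adjusted p = 0.368; 0.0459 with the replicate block). Cyp3a44, another female-biased gene, had 35.3, 4.39 and 5.93 CPM in fasted PC, 7.47, 12.8 and 10.6 CPM in fasted PP, 12.2, 14.4 and 4.36 CPM in fed PC and 27.7, 24.8 and 16.5 CPM in fed PP. Again fasted PC replicate 1 was the highest of its group, and Cyp3a44 was not called (differences of 0.57 ± 0.73 and -1.15 ± 0.73). Without that library the fasted difference turned to -1.01 ± 0.47 (adjusted p = 0.248).

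The near-identical Cyp3a41a and Cyp3a41b, outside the symbol rule because their names end in a letter, share reads with these genes. Cyp3a41a had 2321, 757 and 1020.5 CPM in fasted PC and 62.1, 98.3 and 6.201 CPM in fasted PP, and 1744, 1472 and 723 CPM in fed PC and 218, 49.8 and 20.4 CPM in fed PP. It was higher in PC of fasted mice by 4.62 ± 1.16 (edgeR adjusted p = 0.0483) and differed by 3.77 ± 1.11 in fed mice (edgeR adjusted p = 0.104). Cyp3a41b was at 235, 4.33 and 7.04 CPM in fasted PC, and at 0, 0.527 and 0 CPM in fasted PP, so replicate 1 again stood far above the other 2. In fed mice Cyp3a41b had 14.6, 9.57 and 3.38 CPM in PC and 2.73, 0.375 and 0 CPM in PP. Without fasted PC replicate 1 neither was called in fasted mice, at 4.00 ± 1.16 for Cyp3a41a (edgeR adjusted p = 0.0786) and 4.95 ± 1.47 for Cyp3a41b (edgeR adjusted p = 0.0835). The sum of Cyp3a11, Cyp3a16, Cyp3a41a, Cyp3a41b and Cyp3a44 differed by 1.39 ± 0.44 in fasted mice (edgeR adjusted p = 0.0996) and 1.08 ± 0.43 in fed mice (edgeR adjusted p = 0.23), and was not called. Cyp3a13, Cyp3a25 and Cyp3a59 differed between the zones by -0.57 to 0.07 and were not called. Without fasted PC replicate 1, Cyp3a13 had an adjusted p of 0.0117 in fasted mice.

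The remaining members belong to Cyp2j, Cyp2r and Cyp2u. Cyp2u1 differed by -0.78 ± 0.45 in fasted and -0.85 ± 0.40 in fed mice and was not called. Cyp2j5 and Cyp2j6, epoxygenases of arachidonic acid, differed between zones by 0.17 ± 0.13 and -0.04 ± 0.14 in fasted and 0.03 ± 0.13 and 0.04 ± 0.14 in fed mice. Cyp2r1, which hydroxylates vitamin D, had 11.6, 15.5 and 13.5 CPM in fasted PC, 10.8, 9.58 and 8.66 CPM in fasted PP, 13.5, 12.9 and 12.5 CPM in fed PC and 10.9, 11.8 and 13.3 CPM in fed PP, and its fasted difference of 0.48 ± 0.14 had an adjusted p of 0.069 in edgeR, or 0.027 without fasted PC replicate 1. Cyp2j9 differed by -0.75 ± 0.22 and -0.86 ± 0.24 (edgeR adjusted p = 0.0664 and 0.0621). It passed in fasted mice without fasted PP replicate 1 (0.0376), and in fed mice without fasted PP replicate 2 (0.0343) or fed PC replicate 1 (0.0496).

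The second comparison asked how 24 h of fasting changed the genes within each zone. In PC, 3 members rose and 6 fell, against 11.1% and 10.2% of all genes. In PP, 3 rose and 6 fell, against 8.39% and 9.5% of all genes. These shares are near those of the whole table. Fasted and fed libraries did not overlap in 17 of 41 members in PC and 20 in PP, against 41.7% and 34.6% of all genes. Lack of overlap in a single gene was therefore common, and in PC the members were near the share of all genes. The median log2 fold change of the members was 0.0067 in PC and -0.30 in PP, and that of all genes 0.0042 and 0.0049. The same 3 members rose and the same 3 fell in both zones, out of 764 and 780 genes over the whole table. Without fasted PC replicate 1, 4 rose and 5 fell in PC, against 9.55% and 10.5% of all genes. Cyp2c39 then rose and Cyp2a12 fell in addition, and Cyp2c55 and Cyp2u1 no longer passed. The other 7 calls held, with log2 fold changes that moved by between -0.20 and 0.092 (adjusted p up to 0.0415). Among members not called, Cyp2f2, Cyp3a16 and Cyp3a44 turned to -0.43 ± 0.21, -0.37 ± 0.95 and -1.03 ± 0.47 in PC without that library, against 0.43 ± 0.42, 2.61 ± 1.24 and 0.56 ± 0.73 with it.

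**Figure D5:**
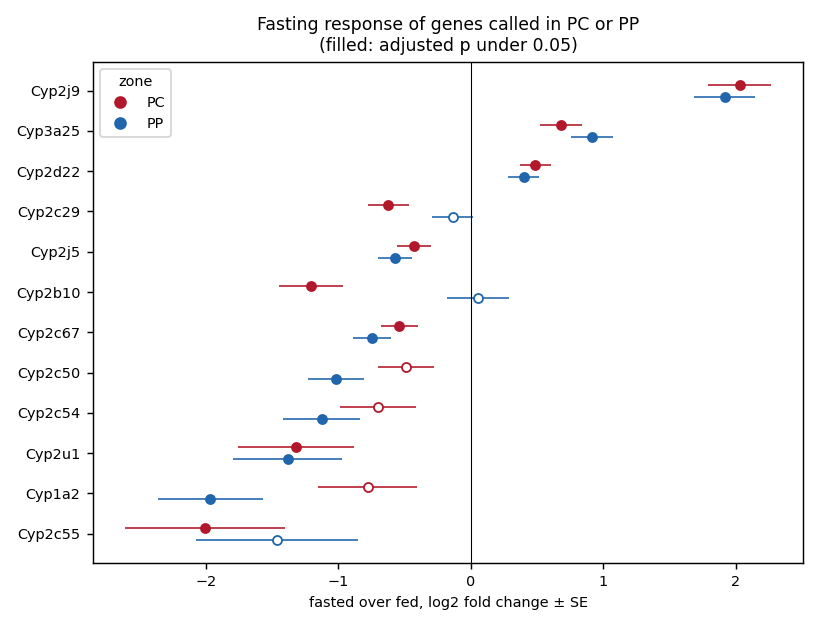
Fasted over fed log2 fold change of the 12 members called in PC or PP, with SE bars from edgeR, PC above PP for each gene; filled points had an adjusted p under 0.05. Cyp2j9, Cyp3a25 and Cyp2d22 lie to the right of 0 in both zones, and Cyp2c67, Cyp2j5 and Cyp2u1 to the left in both.

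Cyp2j9, an arachidonic acid oxidase first known from mouse brain, showed the strongest rise among the members called. It had 9.68, 12.0 and 12.8 CPM in fasted PC, 14.6, 25.8 and 17.5 CPM in fasted PP, 3.55, 2.37 and 2.498 CPM in fed PC and 4.52, 5.07 and 5.77 CPM in fed PP. Each fasted library lay above each fed library of its zone. Cyp2j9 rose by 2.03 ± 0.24 in PC (edgeR adjusted p = 0.000186) and 1.92 ± 0.23 in PP (edgeR adjusted p = 0.00026). Its neighbour on chromosome 4, Cyp2j5, was at 556, 427 and 469 CPM in fasted PC, 416, 482 and 392 CPM in fasted PP, 673, 626 and 657 CPM in fed PC and 646, 702 and 569.8 CPM in fed PP. Its fasted libraries lay below the fed ones. Cyp2j5 fell by 0.43 ± 0.13 in PC (edgeR adjusted p = 0.0321) and by 0.57 ± 0.13 in PP (edgeR adjusted p = 0.00943). The PC call was lost without fasted PC replicate 2 or 3 or any one fed PC library (adjusted p up to 0.129), and the PP call without fed PP replicate 2 (0.0519).

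Cyp3a25 had 1112, 1148 and 1196 CPM in fasted PC, 1057, 1437 and 1372 CPM in fasted PP, 779, 740.1 and 635 CPM in fed PC and 766, 537 and 748 CPM in fed PP, with no overlap between the states. This steroid and drug oxidase rose by 0.68 ± 0.16 in PC (edgeR adjusted p = 0.00893) and 0.91 ± 0.16 in PP (edgeR adjusted p = 0.00223). Summed with its relatives Cyp3a57 and Cyp3a59 it rose by 0.65 ± 0.16 in PC (edgeR adjusted p = 0.012) and 0.83 ± 0.16 in PP (edgeR adjusted p = 0.00391). Cyp2d22, often described as the mouse counterpart of human CYP2D6, had 243, 299 and 273 CPM in fasted PC, 246, 238 and 239.5 CPM in fasted PP, 188, 201 and 192 CPM in fed PC and 163, 175 and 211 CPM in fed PP. The fasted libraries were above the fed ones in both zones. Cyp2d22 rose by 0.49 ± 0.12 in PC (edgeR adjusted p = 0.00993) and 0.40 ± 0.12 in PP (edgeR adjusted p = 0.0303), and the PP call was lost without any one fasted PP library or without fed PP replicate 1 or 2 (adjusted p up to 0.0907).

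The members that fell in both zones were, beside Cyp2j5, Cyp2c67 and Cyp2u1. Cyp2c67, whose values are given above, fell by 0.54 ± 0.14 in PC (edgeR adjusted p = 0.0156) and 0.75 ± 0.14 in PP (edgeR adjusted p = 0.00365); the block it belongs to, summed, differed by 0.039 ± 0.15 in PC and -0.17 ± 0.15 in PP and was not called. Cyp2u1, a fatty acid hydroxylase, was near the limit of detection, at 0.464, 0.421 and 0.499 CPM in fasted PC, 0.401, 0.879 and 1.09 CPM in fasted PP, 1.14, 1.01 and 1.32 CPM in fed PC and 1.53, 1.64 and 3.07 CPM in fed PP. The states did not overlap. Cyp2u1 fell by 1.32 ± 0.44 in PC (edgeR adjusted p = 0.0491) and 1.38 ± 0.41 in PP (edgeR adjusted p = 0.0338). Its PC call was lost in 9 of 12 fits that left out 1 library, the exceptions being fasted PP replicates 1 and 3 and fed PP replicate 3 (adjusted p up to 0.133). The PP call was lost without 1 of fasted PP 1, fasted PP 2, fed PC 2, fed PP 2 and fed PP 3 (up to 0.159), and on the 6 PP libraries alone (0.0822), where Cyp2c54 (0.0814) and Cyp2d22 (0.0803) also lost theirs.

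In PC, Cyp2b10, Cyp2c29 and Cyp2c55 fell as well. Cyp2b10, with the values given above, fell by 1.21 ± 0.24 in PC (edgeR adjusted p = 0.00497) and differed by 0.05 ± 0.23 in PP (edgeR adjusted p = 0.908). Cyp2c29 fell by 0.62 ± 0.16 in PC (edgeR adjusted p = 0.0128; 0.0536 without fed PC replicate 3) and differed by -0.14 ± 0.15 in PP (edgeR adjusted p = 0.596). Cyp2c55, inducible through CAR and PXR, had 0.824, 2.65 and 2.99 CPM in fasted PC, 0.702, 0.923 and 3.10 CPM in fasted PP, 11.1, 5.60 and 9.16 CPM in fed PC and 3.20, 2.86 and 7.07 CPM in fed PP. The PC libraries of both states were apart and the PP ones overlapped. Cyp2c55 fell by 2.01 ± 0.60 in PC (edgeR adjusted p = 0.0355), a call lost without any one fasted PC library, fed PC 1 or fed PC 3 (adjusted p up to 0.0984). In PP it differed by -1.46 ± 0.61 (edgeR adjusted p = 0.126; 0.0256 without fasted PP replicate 3).

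In PP, Cyp1a2, Cyp2c50 and Cyp2c54 fell. Cyp1a2 fell by 1.97 ± 0.39 in PP (edgeR adjusted p = 0.00689), where each fasted library was below each fed one. In PC it differed by -0.78 ± 0.37 (edgeR adjusted p = 0.171; 0.00703 without fasted PC replicate 2). Cyp2c50 fell by 1.02 ± 0.21 in PP (edgeR adjusted p = 0.00644) and differed by -0.49 ± 0.21 in PC (edgeR adjusted p = 0.124). Cyp2c54 fell by 1.13 ± 0.29 in PP (edgeR adjusted p = 0.0217), lost without fasted PP replicate 2 or 3 or fed PP replicate 1 or 3 (adjusted p up to 0.0672), and differed by -0.70 ± 0.29 in PC (edgeR adjusted p = 0.111; 0.00764 without fasted PP replicate 1). Summed with Cyp2c37, these genes fell by 0.63 ± 0.20 in PP (edgeR adjusted p = 0.0461). Cyp2a4 and Cyp2a5 summed fell by 1.495 ± 0.39 in PP (edgeR adjusted p = 0.0245), while apart they differed by -1.47 ± 0.51 and -1.64 ± 0.63 and were not called (edgeR adjusted p = 0.0737 and 0.103; 0.0227 for Cyp2a4 without fasted PC replicate 3).

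Cyp2e1, known for its increase in fasted and diabetic rodents, differed by 0.51 ± 0.60 in PC (edgeR adjusted p = 0.592) and -0.45 ± 0.60 in PP (edgeR adjusted p = 0.664) and was not called. Each fasted PC library was above each fed PC library, and the PP libraries of both states overlapped. Cyp3a11 and Cyp2b9 differed by 0.0067 ± 0.51 and -0.03 ± 0.18 in PC and by -0.26 ± 0.52 and 0.0079 ± 0.18 in PP, and were not called. On the 6 PC libraries alone, Cyp2e1 passed (0.0416), as did Cyp2c50 (0.0182), Cyp2c54 (0.00448) and Cyp2c70 (0.00445), which were lower in fasted PC. On the 6 PP libraries alone Cyp2d9 (0.0446) and Cyp3a44 (0.0213) passed, both lower in fasted PP. Of the members not called, some passed when 1 library was left out. In PC these were Cyp2a12 and Cyp2c39 without fasted PC replicate 1 (0.0364 and 0.00784), Cyp2c39 also without fasted PP replicate 2 (0.0465), and Cyp2c70 without fasted PP replicate 2 (0.0429) or fed PP replicate 2 (0.0444). In PP, Cyp2b13, Cyp2d10, Cyp2d26 and Cyp3a13 passed without fasted PC replicate 1 (0.0266, 0.0483, 0.029 and 0.0229) or without 1 fasted PP library (0.039 to 0.0435), as did Cyp2c69 and Cyp2c70 without 1 fasted PP library (0.03 and 0.0441) and Cyp2c23 without fed PP replicate 3 (0.0473). DESeq2 added Cyp2c39 (0.0318) as higher and Cyp2c54 (0.0398) as lower in fasted PC. In fasted PP it added Cyp2d10 (0.000547), Cyp2d26 (0.0141) and Cyp3a13 (0.0255) as higher, and Cyp2a4 (0.0269), Cyp2a5 (0.0248), Cyp2b13 (0.0353) and Cyp2c55 (0.0484) as lower. With DESeq2 size factors in edgeR, Cyp2d10 (0.0447) and Cyp2d26 (0.0497) passed in PP.

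The third comparison asked whether the fasting differences were unequal between the zones. No gene passed in edgeR over the whole table (0%), 0 of 41 members among them; DESeq2 passed 11 genes, and edgeR without fasted PC replicate 1 passed 2, none of them a member. At an unadjusted p under 0.05 edgeR gave 3 members, or 7 without fasted PC replicate 1, and DESeq2 gave 5, with 0 called in each. The 3 were Cyp2b10, with a difference between the zone contrasts of -1.26 ± 0.34, Cyp1a2 with 1.19 ± 0.54 and Cyp2c29 with -0.49 ± 0.22. Calls in one zone or one state and not in the other are therefore not shown to differ. SEs were large for the most zoned genes, such as Cyp2a5 at 1.90 ± 0.87 and Cyp2e1 at 0.96 ± 0.85.

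Genes that serve these enzymes were read from the same fit. Over all genes, 3.35% were called higher and 3.05% lower in PC of fasted mice, and 2.24% and 2.47% in PC of fed mice. On fasting, 11.1% of all genes rose and 10.2% fell in PC, and 8.39% and 9.5% in PP. Of 10 electron donors and their partners, 3 were called higher in PC of fasted mice and 0 lower (median 0.31), and 2 higher and 1 lower in PC of fed mice (median 0.06). Por had 1142, 1653 and 1557 CPM in fasted PC and 948, 1021 and 869.8 CPM in fasted PP, and 578, 614 and 567 CPM in fed PC and 307, 419 and 422 CPM in fed PP. The 4 groups lay apart, in the order fasted PC, fasted PP, fed PC and fed PP from high to low. Por was higher in PC by 0.62 ± 0.16 in fasted and 0.62 ± 0.16 in fed mice, and rose on fasting by 1.31 ± 0.16 in PC and 1.31 ± 0.16 in PP (edgeR adjusted p = 0.0372, 0.0435, 0.000228 and 0.000315). Cyb5a, the cytochrome b5 of the endoplasmic reticulum, was higher in PC by 1.00 ± 0.13 and 0.89 ± 0.13. On fasting, 2 of the 10 rose and 1 fell in PC, and 1 rose and 1 fell in PP.

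Of 22 xenobiotic sensors and their partners, 1 was called higher in PC in each state, and 0 lower (median 0.14 in fasted and 0.08 in fed mice). It was Ahr, with 34.8, 85.1 and 48.0 CPM in fasted PC and 10.7, 10.1 and 8.48 CPM in fasted PP, and 56.7, 68.3 and 57.6 CPM in fed PC and 19.5, 6.34 and 14.7 CPM in fed PP. The zones did not overlap, and Ahr was higher in PC by 2.51 ± 0.40 and 2.17 ± 0.39 (edgeR adjusted p = 0.00444 in fasted and 0.0104 in fed mice). On fasting 5 of the 22 rose and 2 fell in PC, against 11.1% and 10.2% of all genes. In PP 6 rose and 4 fell, against 8.39% and 9.5%. The PXR gene Nr1i2 rose by 1.08 ± 0.20 and 1.02 ± 0.20 and the CAR gene Nr1i3 by 1.11 ± 0.26 and 1.00 ± 0.26 in PC and PP (edgeR adjusted p at most 0.0194). Nr1i3 was at 519, 635 and 542 CPM in fasted PC and 277, 255 and 255 CPM in fed PC, and at 294, 429 and 201 CPM in fasted PP and 209, 119 and 132 CPM in fed PP. Its PC libraries were apart, and its PP libraries overlapped. Of 10 other aryl hydrocarbon receptor targets, 1 was higher and 1 lower in PC of fasted mice, and 0 higher and 1 lower in PC of fed mice. For both lists, the shares of all genes called higher and lower were 3.35% and 3.05% in fasted and 2.24% and 2.47% in fed mice.

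Growth hormone pulses are known to set the sex bias of many P450 genes in mouse liver, and here all mice were female. Of 11 genes known as female-biased, 6 were called higher in PC of fasted mice and 0 lower (median 1.88). The shares of all genes were 3.35% and 3.05%. In PC of fed mice 3 were higher and 1 lower (median 1.01), against 2.24% and 2.47% of all genes. On fasting 0 changed in either zone. The 6 were Cyp2b13, Cyp2c39, Cyp2c69, Cyp3a16, Cyp3a41a and Cyp3a41b, of which the last 3 had adjusted p of 0.0472, 0.0483 and 0.0494. Cyp3a41a shared 96.1% of its transcript words with Cyp3a41b, and Cyp3a16 shared 13.3% and 11.9% with them. These 3 calls are therefore not independent. Summed with Cyp3a11 and Cyp3a44, they were not called in fasted mice (edgeR adjusted p = 0.0996), nor was Cyp2b13 with Cyp2b9 (0.0919). The sums that hold Cyp2c39 and Cyp2c69 were called higher in PC (edgeR adjusted p = 0.000759 and 0.00259). The list summed to 4973, 2993 and 3024.5 CPM in fasted PC and 1641, 2125 and 1502 CPM in fasted PP, so replicate 1 was the highest fasted PC library. Without fasted PC replicate 1, 3 of the 11 were called higher (Cyp2b13, Cyp2c39 and Cyp2c69) and 0 lower, with a median of 1.67. Of 4 known as male-biased (Cyp2d9, Cyp2c54, Cyp2f2 and Cyp2u1), 2 were higher and 1 lower in PC in each state. Of 13 growth hormone and sex-bias regulators, 3 rose and 1 fell on fasting in PC, against 11.1% and 10.2% of all genes. In PP 4 rose and 1 fell, against 8.39% and 9.5%. Socs2, a growth hormone target, rose by 1.64 ± 0.23 in PC (edgeR adjusted p = 0.000585) and 0.83 ± 0.23 in PP (edgeR adjusted p = 0.0269). Cux2, a female-biased repressor, was lower in PC of fasted mice, at -1.13 ± 0.16 on the log2 scale (edgeR adjusted p = 0.00128) and rose on fasting in PP by 0.95 ± 0.16 (edgeR adjusted p = 0.00167).

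P450 genes of the other families, which make bile acids and oxidise long-chain fatty acids and sterols, were read beside the members. Of 38 such genes 24 were tested. In PC of fasted mice 4 were called higher and 1 lower, against 3.35% and 3.05% of all genes. In PC of fed mice 2 were higher and 2 lower, against 2.24% and 2.47%. Cyp27a1 and Cyp7b1, of the alternative route of bile acid synthesis, were higher in PC by 1.65 ± 0.18 and 2.46 ± 0.31 in fasted and 1.07 ± 0.18 and 1.76 ± 0.29 in fed mice (edgeR adjusted p at most 0.00494). The median zone difference of the 24 was 0.13 in fasted and 0.25 in fed mice. On fasting 2 rose and 1 fell in PC, against 11.1% and 10.2% of all genes. In PP 1 rose and 2 fell, against 8.39% and 9.5%.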

How the data were processed

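Hepatocyte RNA of 12 libraries in 4 groups was sequenced, and gene values in the deposited table are estimated counts that the authors made with kallisto 0.46.0 and the mm10 build, per the submitters' processing notes. Between 27.9% and 32.7% of the values in a library were not whole, and the counts were rounded. How transcripts were summed to genes is not given in the sources used here, and the NEBNext Ultra kit named in the labels' protocols does not mark strand, so antisense reads cannot be told apart. Totals ran from 16245846 to 27449412, and counting limits the precision of the rarest genes. Of 28030 gene IDs, 27566 matched a symbol in the annotation (GENCODE, GRCm38) and 464 did not.

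Genes were filtered with filterByExpr, scaled with TMM and tested with edgeR 4.0.16 (quasi-likelihood, 1 mean per group, 8 residual degrees of freedom, common biological coefficient of variation 0.206) in R 4.3.3, with Benjamini-Hochberg adjustment over 12086 genes. The same code was tested on simulated counts. Summed levels were compared with exact permutation tests (scipy 1.17.1). Relatives were defined by shared 31-base words (at least 20%) in annotated transcripts, and summed to 1 feature as an alternative. Alternatives were DESeq2 1.42.0, its size factors, no filter, only the groups compared, a replicate block, each library left out, and a 50% limit for relatives, the last chosen after seeing the data. RefSeq windows of 250 upstream bases (GRCm38.p6) were searched on both strands for the motifs spelled out in the text. All 41 members are accounted for. Values in every library are given for the most abundant member of each subfamily, for named anchor genes, and for members called in a comparison. The members and gene lists were chosen with earlier results of these data known. Libraries of a group differed by more than sampling noise (chi-square per degree of freedom 25.8 to 86.5), so each counted as 1 sample.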

Additional observations from a re-analysis of the deposited data

How the results depend on the processing

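No called member reversed direction under any alternative run. Values for single members were counted, with the third comparison not covered for every member. With 1 library left out, 1815 kept their direction and side of the threshold. Of the rest, 92 lost the call, 31 gained it and 90 turned sign with no call on either side. Under the other settings the numbers were 1002, 20, 33 and 9. In fasted mice, the 15 members called higher in PC became 9 with only the groups compared and 8 of 28 features with relatives summed. Over the whole table, 405 of 12086 genes were called higher in the main fit. This became 195 of 11391 with only the groups compared and 392 of 12070 with relatives summed. The 2 called lower became 5 in DESeq2, where 555 of all 12086 genes were called lower, against 369 in the main fit. In fed mice, the 15 called higher became 8 of 28 features with relatives summed. Over the whole table, 271 of 12086 genes became 264 of 12070. The 2 called lower became 4 in DESeq2 and 1 with relatives summed at either limit. Over the whole table, 299 of 12086 genes called lower became 482 in DESeq2. With relatives summed they were 299 of 12070 at the 20% limit and 298 of 12081 at the 50% limit. On fasting in PP, the 3 that rose became 5 with DESeq2 size factors and 6 in DESeq2. Over all 12086 genes, 1014 rose in the main fit, 1042 with these size factors and 1281 in DESeq2. The 6 that fell became 10 in DESeq2, where 1353 of all genes fell, against 1148 in the main fit. Except for these settings' own construction (fewer libraries or fewer features), the cause was not tested.

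With 1 library left out, the counts called higher and lower in PC ranged from 12 to 15 and 2 to 5 in fasted mice, and from 9 to 15 and 1 to 3 in fed mice. Over the 12345 to 12400 genes tested, they ranged from 203 to 484 and 183 to 521 in fasted mice. In fed mice the ranges were 152 to 346 and 130 to 355. On fasting, 3 to 4 rose and 2 to 7 fell in PC, and 2 to 6 rose and 4 to 7 fell in PP. Over all genes tested, 788 to 1301 rose and 805 to 1334 fell in PC. In PP, 663 to 1143 rose and 738 to 1271 fell. Same-numbered libraries of different groups deviated together with r between -0.12 and 0.27 (18 pairs, 3 over 0.1). All 3 joined PC and PP of one feeding state. There r was 0.19, -0.12 and 0.094 in fasted and 0.27, 0.024 and 0.15 in fed mice, replicates 1 to 3. Libraries of unlike number in one state reached 0.22 (fasted PC 2 and fasted PP 3). Whether PC and PP libraries share animals is not given, and the main fit took no pairs. With the replicate block, 16 members were called higher and 2 lower in PC of fasted mice, and 15 and 2 in PC of fed mice. On fasting 3 rose and 7 fell in PC, and 3 rose and 6 fell in PP. Over all 12086 genes the numbers were 410 and 386, 301 and 324, 1391 and 1305, and 1039 and 1184, in that order. The block moved the fed call of Cyp2d9 to an adjusted p of 0.0504. With it, Cyp2g1 passed in PC over PP of fasted mice (0.0191), Cyp3a16 in that of fed mice (0.0459) and Cyp2c70 in fasting in PC (0.049). Depth limits what can be said of Cyp2u1, Cyp2d34, Cyp2c55 and Cyp2g1.

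With 1 library left out, the sign of the log2 fold change turned in 42 of 169 member and comparison pairs, with no call on either side of a turn. The pairs do not cover the third comparison for every member. There, for example, Cyp2d40 turned from -0.12 to 0.10 and Cyp2d34 from -0.10 to 0.0076 without fasted PC replicate 1. The lowest and highest values of the 42 pairs follow. For PC over PP in fasted mice these were Cyp2b9 (-0.25 to 0.11), Cyp2c40 (-0.15 to 0.032), Cyp2d34 (-0.97 to 0.54), Cyp2j6 (-0.13 to 0.086), Cyp3a44 (-1.01 to 1.01) and Cyp3a59 (-0.11 to 0.10). In fed mice they were Cyp2b9 (-0.11 to 0.12), Cyp2c40 (-0.20 to 0.24), Cyp2c70 (-0.39 to 0.00197), Cyp2d34 (-0.12 to 0.29), Cyp2j5 (-0.033 to 0.12), Cyp2j6 (-0.056 to 0.17), Cyp3a25 (-0.058 to 0.18) and Cyp3a59 (-0.41 to 0.019). For fasting in PC they were Cyp2a22 (-0.12 to 0.20), Cyp2a4 (-0.55 to 0.14), Cyp2a5 (-0.27 to 0.48), Cyp2b13 (-0.28 to 0.084), Cyp2b9 (-0.23 to 0.068), Cyp2c23 (-0.31 to 0.16), Cyp2c68 (-0.061 to 0.037), Cyp2d40 (-0.21 to 0.19), Cyp2d9 (-0.17 to 0.76), Cyp2f2 (-0.43 to 0.74), Cyp2r1 (-0.048 to 0.14), Cyp3a11 (-0.35 to 0.33), Cyp3a13 (-0.048 to 0.34), Cyp3a16 (-0.37 to 3.23) and Cyp3a44 (-1.03 to 1.00). For fasting in PP they were Cyp2a12 (-0.23 to 0.10), Cyp2b10 (-0.15 to 0.19), Cyp2b9 (-0.16 to 0.14), Cyp2c29 (-0.33 to 0.017), Cyp2c37 (-0.17 to 0.46), Cyp2c38 (-0.22 to 0.37), Cyp2c69 (-0.77 to 0.046), Cyp2d40 (-0.18 to 0.29), Cyp2e1 (-0.79 to 0.21), Cyp2g1 (-0.61 to 0.32), Cyp3a11 (-0.67 to 0.14), Cyp3a16 (-1.95 to 0.60) and Cyp3a59 (-0.062 to 0.34). Under the other settings, fasting in PC turned Cyp2c68 to -0.0075 in DESeq2, -0.0074 with its size factors, -0.0031 with no filter and -0.0200 with only the groups compared, and Cyp3a11 to -0.00012 with no filter, -0.011 with only the groups compared and -0.063 with the replicate block. With no filter, Cyp2d34 turned to 0.0104 in PC over PP of fasted mice and Cyp2c37 to -6.18e-05 in fasting in PP.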
